A study of Mus musculus with 18 samples.

Results

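The genes described here are the peroxisome proliferator-activated receptors (PPARs), their binding partners and the proteins that switch them on or off, read in mouse liver by RNA sequencing. The set has 8 members of the 19057 lines in the table, and all 8 were found by symbol. They are the receptors Ppara, Ppard and Pparg, the partners Rxra and Rxrb, the coactivators Ppargc1a and Ppargc1b, and the corepressor Ncor1. The members were chosen by name with the values of these same livers in view, and the choice set no threshold, so their levels and differences are a description. Whether a member was among the genes called over the whole table is counted below beside the share of all genes called, with no p-value and nothing read from it. Statements that groups of 3 livers overlap or not describe values only. The share of all genes whose groups stand apart is not given here, so nothing is read from them either. Of the 8 members, 7 reached 1 RPKM (reads scaled to transcript length and to the mapped reads of the library) in at least 3 livers and entered the comparisons, among 10507 genes in all. Ppargc1a reached 1 RPKM in 1 liver and is given by its values.

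All 18 livers came from male ICR mice labelled 10 weeks of age, with 3 livers in each of 6 groups. Con mice had a regular diet and saline, and HFD mice had a high-fat diet and saline. Con-FMT mice had the high-fat diet with fecal microbiota transplantation (FMT) from control donors, and A10-FMT mice had the same diet with FMT from donors dosed with 10 mg/kg alginate oligosaccharide (AOS). A further group, AOS, received 10 mg/kg AOS with no diet named on its labels, and HFD+AOS received the high-fat diet and 10 mg/kg AOS. The study's methods describe neither of these groups. The AOS effect between diets below sets HFD+AOS against HFD beside AOS against Con. It takes the AOS livers as not on the high-fat diet, which their labels do not state. Donor material was luminal content of the small intestine pooled within each donor group, so each FMT group stands for 1 donor pool. The study was about semen quality and fertility of males on this diet, and the liver was examined as a step between gut and testis.

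PPARs are nuclear receptors that bind fatty acids and their derivatives. Each pairs with a retinoid X receptor (RXR), and the pair binds DNA at repeats of a short core sequence, releasing corepressors and recruiting coactivators when a ligand arrives. In liver, PPAR alpha drives fatty acid oxidation and ketone production during fasting, PPAR delta is broadly expressed and acts on glucose and lipid use, and PPAR gamma is best known from adipocytes. PGC-1 alpha and PGC-1 beta, the products of Ppargc1a and Ppargc1b, are coactivators tied to mitochondrial function, and NCoR1 recruits histone deacetylases to silence receptor targets.

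The values summed to between 692303 and 806937 RPKM per liver, and 14512 to 14982 lines were above 0. The number of reads behind them is unknown. On 103 sparse lines, what 1 read was worth in a liver averaged 0.979 to 1.02 of the line's median. Only lines with values near whole multiples of their lowest value were used. That choice favours like steps, so these values cannot show whether depth was alike. Con replicate 3 lay between Con replicates 1 and 2 for 98.0% of the 148 genes that set those apart, and AOS replicate 3 lay between AOS replicates 1 and 2 for 96.5% of 142 such genes. A weighted mean of the other livers of the group missed these by a median of 0.0665 and 0.0830 (log2), against 0.341 to 0.590 for livers of the 4 high-fat groups. The main results that rest on Con or AOS are therefore given with and without both livers. Because all 6 groups share 1 estimate of spread in the fits below, these livers bear on the calls of every comparison. Nothing in the sources used here says whether the livers of a group were handled separately, so the p-values below measure the spread between these samples.

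**Figure D1:**
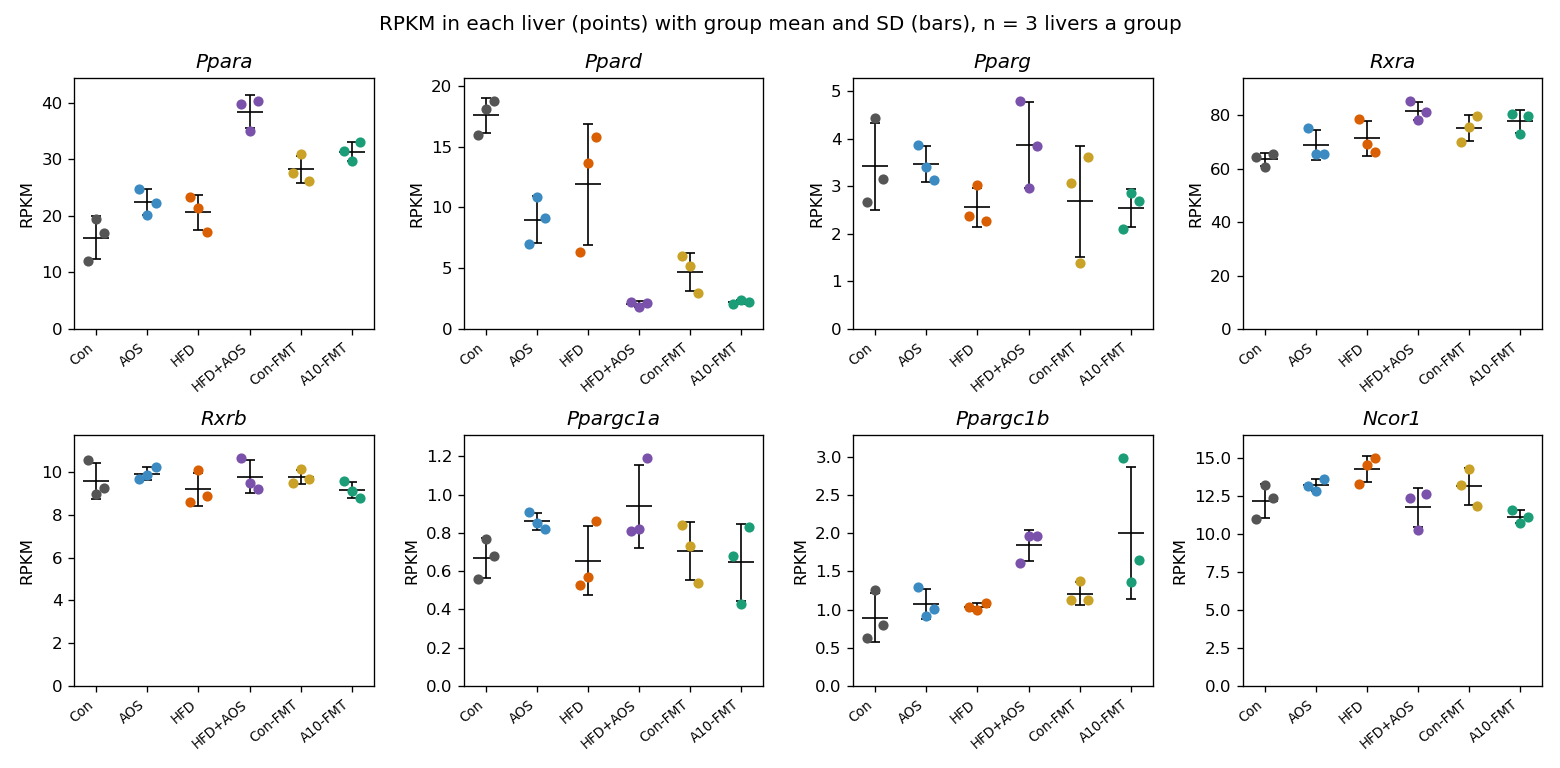
RPKM of the 8 members in each of 18 livers (points, 1 panel a gene, y axis from 0 in RPKM), with the mean and SD of each group of 3 livers as bars. Ppara was highest in HFD+AOS and Ppard was lowest in HFD+AOS and A10-FMT, whereas Rxrb stayed between 8.59 and 10.65 RPKM in every liver.

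By median RPKM over the 18 livers, which is scaled to transcript length, Rxra was the most abundant member at 74.1, followed by Ppara at 25.4, Ncor1 at 12.7 and Rxrb at 9.54. Ppard followed at 6.14, Pparg at 3.05, Ppargc1b at 1.19 and Ppargc1a at 0.79. Rxra, Ppara and Ncor1 each exceeded the next gene in 18 of 18 livers. Rxrb exceeded Ppard in 12 livers and Ppard exceeded Pparg in 11, so the places of these neighbours in the order depended on the group. Pparg exceeded Ppargc1b in 16 of 18 livers.

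Ppara encodes PPAR alpha, the main receptor of this family in hepatocytes. Its RPKM in replicates 1, 2 and 3 was 12.01, 19.54 and 16.97 in Con, 24.73, 20.23 and 22.31 in AOS and 23.35, 21.33 and 17.19 in HFD. It was 39.88, 35.09 and 40.29 in HFD+AOS, 27.65, 30.89 and 26.12 in Con-FMT and 31.50, 29.66 and 33.01 in A10-FMT. Ordered by group mean, the groups were Con (16.2 ± 3.83, SD, n = 3), HFD (20.6 ± 3.14), AOS (22.4 ± 2.25), Con-FMT (28.2 ± 2.44), A10-FMT (31.4 ± 1.68) and HFD+AOS (38.4 ± 2.89). Among neighbours in this order, Con overlapped HFD, HFD overlapped AOS, and Con-FMT overlapped A10-FMT. All livers of Con-FMT, A10-FMT and HFD+AOS were above all livers of Con, AOS and HFD. In bulk tissue, fewer cells of a type and less RNA per cell cannot be told apart.

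Ppard encodes PPAR delta, a receptor found in most tissues. Its RPKM in replicates 1, 2 and 3 was 15.97, 18.07 and 18.74 in Con, 7.0, 10.89 and 9.11 in AOS and 6.31, 13.62 and 15.76 in HFD. It was 2.26, 1.78 and 2.17 in HFD+AOS, 5.97, 5.17 and 2.95 in Con-FMT and 2.05, 2.42 and 2.24 in A10-FMT. Group means were 17.6 ± 1.45 in Con, 11.9 ± 4.96 in HFD, 9.0 ± 1.95 in AOS, 4.70 ± 1.56 in Con-FMT, 2.24 ± 0.185 in A10-FMT and 2.07 ± 0.255 in HFD+AOS (SD, n = 3). HFD overlapped AOS and A10-FMT overlapped HFD+AOS, whereas the other neighbours in this order did not overlap. HFD replicate 1 stood apart from the other 2 HFD livers and lay close to the highest Con-FMT liver.

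The sequences before the start sites of Ppara and Ppard are shown because these genes differed in opposite directions across the groups. Both are printed 5′ to 3′ on the plus strand from RefSeq promoter windows (GRCm38.p6), with CG pairs in capitals and annotated exons left out. The Ppara stretch is chr15:85735714-85735775, bases -62 to -1 from its start, and the Ppard stretch is chr17:28232504-28232699, bases -250 to -55. The Ppara stretch lies within the annotated span of the gene, chr15:85734910-85806851, since longer transcripts start before it.
Ppara: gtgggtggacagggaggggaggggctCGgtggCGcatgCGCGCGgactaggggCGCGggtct
Ppard: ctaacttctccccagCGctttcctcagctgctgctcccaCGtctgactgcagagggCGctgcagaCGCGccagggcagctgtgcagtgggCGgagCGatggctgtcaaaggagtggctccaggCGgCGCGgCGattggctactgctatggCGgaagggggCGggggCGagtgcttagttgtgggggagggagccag
Over the whole 250 bases before the start, Ppara held 27 CG pairs and 76.4% G or C, and Ppard held 22 pairs and 69.6%. Both were above the upper quartile of all 32851 windows, at 16 pairs and 61.2%, and the median window held 6 pairs and 52.4%. Neither window held the E-box CACGTG, the D-box TTATGTAA or the receptor core AGGTCA on either strand, which says only that these letters are not in these 250 bases.

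The ratio of Ppard to Ppara RPKM set most groups apart. It ran from 0.925 to 1.33 in Con, from 0.270 to 0.917 in HFD and from 0.283 to 0.538 in AOS. In Con-FMT it was 0.113 to 0.216, in A10-FMT 0.0651 to 0.0816 and in HFD+AOS 0.0507 to 0.0567. HFD and AOS overlapped and the other groups did not. Over the 18 livers, log2 values of the 2 genes had a Pearson r of -0.90, and after each group's mean was taken off, r was -0.20. These are descriptions over livers that share their groups.

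**Figure D2:**
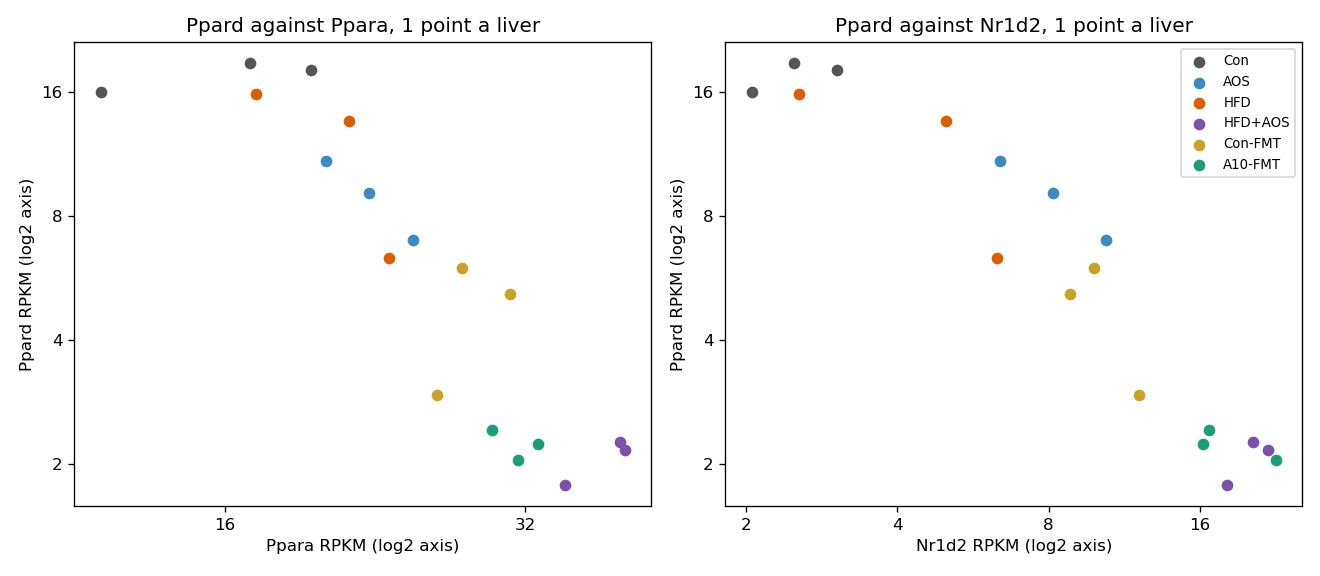
Ppard RPKM against Ppara RPKM (left) and against Nr1d2 RPKM (right), 1 point a liver coloured by group, on log2 axes. HFD+AOS and A10-FMT livers lie at the lower right of both plots, with Ppard between 1.78 and 2.42 RPKM, and Con livers lie at the upper left.

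Genes of the circadian clock differed strongly between the same high-fat groups, and their part in the values of Ppard and Ppara was not tested. Of 10507 genes, Nr1d2, which encodes the clock repressor REV-ERB beta, ran most opposite to Ppard (r = -0.96 over 18 livers, -0.69 after group means were taken off). Nr1d2 RPKM was 2.05 to 3.03 in Con, 2.55 to 6.32 in HFD, 6.39 to 10.41 in AOS, 8.81 to 12.12 in Con-FMT, 16.22 to 22.67 in A10-FMT and 18.14 to 21.88 in HFD+AOS. Within AOS, HFD, Con-FMT and A10-FMT the liver with the lowest Ppard had the highest Nr1d2, whereas within Con and HFD+AOS it had the lowest Nr1d2. Dbp, a clock output factor, was 0.27 to 0.59 RPKM in HFD, 3.24 to 22.57 in Con-FMT, 49.17 to 126.90 in A10-FMT and 88.90 to 111.84 in HFD+AOS. Arntl, which encodes the clock activator BMAL1, was 12.11 to 14.64 in HFD, 6.94 to 12.97 in Con-FMT, 0.69 to 2.41 in A10-FMT and 1.18 to 1.32 in HFD+AOS. Between Con and AOS, Arntl was 10.11 to 12.90 RPKM in Con and 11.16 to 12.72 in AOS (log2 difference 0.02 ± 0.22, SE). Dbp was 0.58 to 0.68 in Con and 0.36 to 3.41 in AOS. Nr1d1 was 1.22 to 3.68 in Con and 10.03 to 30.70 in AOS, and was not called. Nr1d2 rose in AOS against Con (1.39 ± 0.22, SE, limma adjusted p = 0.0221), where 0.133% of all genes were called. That call was lost without Con replicate 1 or 3, without AOS replicate 1 or 3, and without Con replicate 3 and AOS replicate 3 together (adjusted p up to 0.460). After group means were taken off, the r of Ppara was 0.37 with Arntl, 0.28 with Npas2, -0.08 with Dbp, 0.45 with Tef and 0.63 with Nr1d2. Over all livers these were -0.74, -0.81, 0.84, 0.87 and 0.94 in that order. As a list, 5 of 5 genes of the Arntl phase fell and 8 of 9 genes of the opposite phase rose in A10-FMT against HFD, and 5 of 5 fell and 7 of 9 rose in HFD+AOS against HFD (limma, adjusted p under 0.05), where 6.6% and 8.75% of all genes were called. The median log2 differences were -1.51 and 2.00 in the former and -1.71 and 2.58 in the latter, beside -0.03 and -0.01 over all genes.

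Pparg encodes PPAR gamma, and its RPKM was low in all groups. It was 2.67, 4.44 and 3.16 in Con, 3.87, 3.41 and 3.13 in AOS and 2.38, 3.03 and 2.27 in HFD. It was 4.79, 2.97 and 3.85 in HFD+AOS, 3.06, 1.38 and 3.62 in Con-FMT and 2.10, 2.85 and 2.69 in A10-FMT. The groups overlapped in each of the 6 comparisons of 2 groups. Con-FMT replicate 2 had the lowest value of all livers, and without it the log2 difference of Con-FMT from HFD was 0.29 in place of 0.00.

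RXR alpha, from Rxra, is the main partner of PPARs in liver, and RXR beta comes from Rxrb. Rxra RPKM was 64.46, 60.65 and 65.51 in Con, 75.38, 65.68 and 65.67 in AOS, 78.79, 69.17 and 66.20 in HFD, 85.34, 78.36 and 81.18 in HFD+AOS, 70.12, 75.55 and 79.90 in Con-FMT and 80.41, 72.90 and 79.94 in A10-FMT. All livers of the other groups were above all Con livers, and the 4 high-fat groups overlapped their neighbours. Rxrb was 10.56, 8.96 and 9.26 in Con, 9.69, 9.85 and 10.26 in AOS, 8.59, 10.08 and 8.90 in HFD, 10.65, 9.48 and 9.19 in HFD+AOS, 9.49, 10.14 and 9.67 in Con-FMT and 9.58, 9.11 and 8.81 in A10-FMT. Its groups overlapped in each of the 6 comparisons of 2 groups. Rxra exceeded Ppara 3.10 to 5.37 times in Con and 2.01 to 2.23 times in HFD+AOS.

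The coactivators were the least abundant members. Ppargc1b RPKM was 0.63, 1.25 and 0.80 in Con, 1.29, 0.92 and 1.01 in AOS, 1.03, 0.99 and 1.09 in HFD, 1.61, 1.96 and 1.96 in HFD+AOS, 1.12, 1.38 and 1.13 in Con-FMT and 2.98, 1.36 and 1.65 in A10-FMT. All livers of HFD+AOS, Con-FMT and A10-FMT were above all HFD livers, those of Con-FMT narrowly (lowest 1.12, against 1.09 as the highest in HFD). A10-FMT replicate 1 was the highest of all, and without it the log2 difference of A10-FMT from HFD was 0.30 in place of 0.52. Ppargc1a RPKM was 0.56, 0.77 and 0.68 in Con, 0.91, 0.85 and 0.82 in AOS, 0.53, 0.57 and 0.86 in HFD, 0.81, 0.82 and 1.19 in HFD+AOS, 0.84, 0.73 and 0.54 in Con-FMT and 0.68, 0.43 and 0.83 in A10-FMT. All AOS livers were above all Con livers for Ppargc1a, and the groups of the other 5 comparisons of 2 groups overlapped. These AOS and Con values were all under 1 RPKM, and this gene did not enter the comparisons.

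Ncor1 encodes the corepressor NCoR1. Its RPKM was 10.99, 13.21 and 12.39 in Con, 13.19, 12.85 and 13.61 in AOS and 13.30, 14.55 and 15.00 in HFD. It was 12.39, 10.27 and 12.62 in HFD+AOS, 13.26, 14.31 and 11.87 in Con-FMT and 11.62, 10.73 and 11.13 in A10-FMT. HFD livers were above all livers of Con, HFD+AOS and A10-FMT, and A10-FMT livers were below all Con-FMT livers.

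Next, the groups were compared over all 10507 genes with limma on log2(RPKM + 1), a scale that understates the change of low genes. In A10-FMT against HFD, 6.6% of all genes were called at an adjusted p under 0.05, and 3 of 7 members were among them. Ppara was 0.59 ± 0.14 (SE) higher on this scale, and Ppard was -1.91 ± 0.25 and Ncor1 -0.33 ± 0.09 from HFD. Of these 3, only Ppard was still called when HFD replicate 2, HFD replicate 3 or A10-FMT replicate 1 or 2 was left out. In HFD+AOS against HFD, 8.75% of all genes and 2 of 7 members were called, with Ppara at 0.87 ± 0.14 and Ppard at -1.99 ± 0.25. Without Con replicate 3 and AOS replicate 3, Ppara and Ppard were called in both comparisons and Ncor1 in neither. The share of all genes called was then 3.76% in A10-FMT against HFD and 4.72% in HFD+AOS against HFD. Both comparisons use the same 3 HFD livers. Nothing is read from these counts, since the members were named from these values.

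No member was called in the remaining comparisons, where few genes were called at all. HFD against Con called 0.381% of genes, Con-FMT against HFD 0.00952%, A10-FMT against Con-FMT 1.68% and AOS against Con 0.133%. For Ppara the log2 differences were 0.35, 0.44, 0.15 and 0.47 in that order (SE 0.14), and for Ppard they were -0.61, -1.13, -0.78 and -0.91 (SE 0.25). Without Con replicate 3 and AOS replicate 3, HFD against Con gave 0.39 for Ppara and -0.57 for Ppard, and AOS against Con gave 0.52 and -0.88. Without HFD replicate 1, Ppard was called in Con-FMT against HFD at -1.50 (0.124% of all genes called), in A10-FMT against Con-FMT (1.92%) and in the AOS effect between diets at -1.44 (1.77%). Its difference between HFD and Con then shrank to -0.25. The AOS effect on the high-fat diet against that without it, which called 0.504% of genes, was 0.41 ± 0.20 for Ppara, -1.08 ± 0.35 for Ppard and -0.37 ± 0.13 for Ncor1. Without Con replicate 3 and AOS replicate 3, these were 0.36, -1.10 and -0.37.

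**Figure D3:**
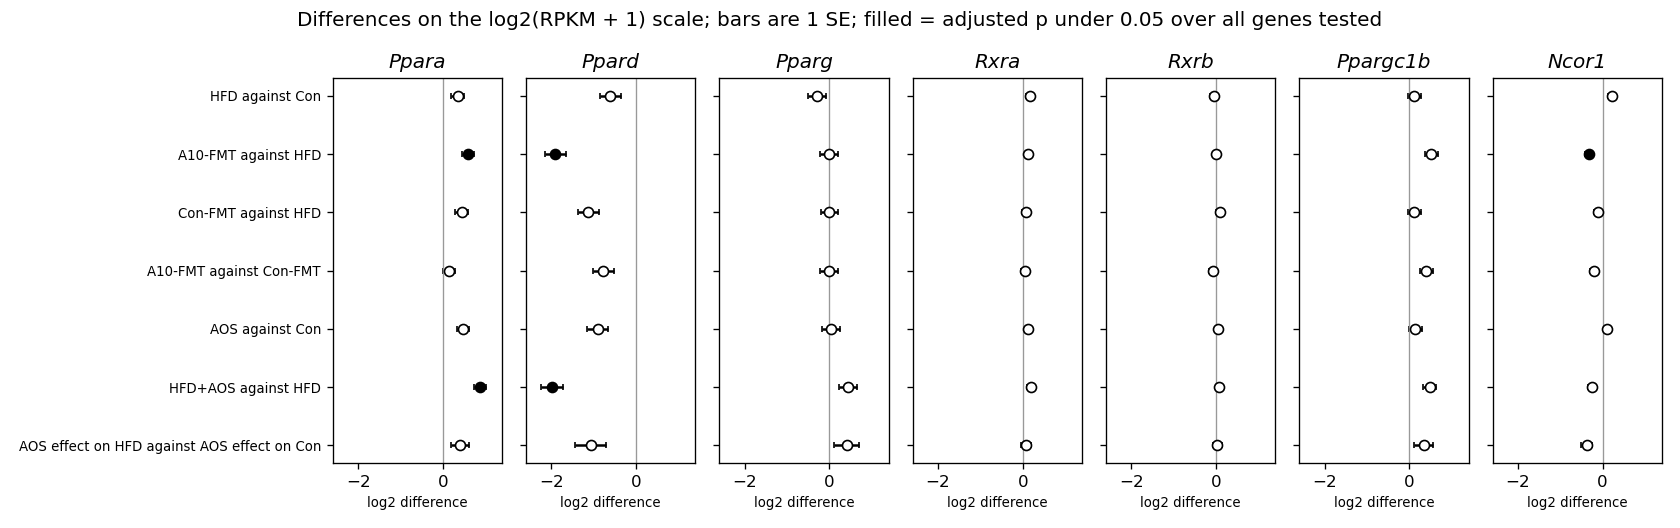
Log2 differences of RPKM + 1 for the 7 members compared (x axis, 1 panel a gene) in 7 comparisons (y axis), with bars of 1 SE and filled points where the gene was called over all genes. Ppard ran from -1.99 to -0.61, below 0 in all 7 comparisons, and Rxrb lay near 0 in all 7.

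PPAR alpha acts through a known set of target genes for fatty acid uptake, oxidation and ketone production, and 46 of 47 on the list were tested. In HFD against Con, 5 targets rose and none fell, with a median log2 difference of 0.31 beside 0.05 over all genes (0.32 beside 0.06 without Con replicate 3 and AOS replicate 3). They were Hadhb of mitochondrial beta oxidation (0.56 ± 0.08, SE, adjusted p = 0.0175), Angptl4, an inhibitor of lipoprotein lipase (0.90 ± 0.14, adjusted p = 0.0240), the hepatokine Fgf21 (1.44 ± 0.25, adjusted p = 0.0283), the fatty acid transporter Slc27a2 (0.61 ± 0.11, adjusted p = 0.0317) and Crot of peroxisomal export (0.93 ± 0.18, adjusted p = 0.0352). The share of all genes called was 0.381%. These calls were lost without Con replicate 1 (0 called), without Con replicate 3 (0), and without Con replicate 3 and AOS replicate 3 (0). In each of these fits 0.0% of all genes were called, so the loss was not particular to the targets. In the last of them the 5 differences were 0.56, 0.91, 1.47, 0.62 and 0.95. Without AOS replicate 3, 2 targets were called (0.0476% of all genes), and without any 1 of the HFD livers 3 (0.0857% to 0.162%). Without Con replicate 2, 11 were called (1.69%).

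When A10-FMT was set against HFD, 2 targets rose and 5 fell, with a median of 0.07 beside -0.03 over all genes. The peroxisomal thiolase Acaa1a (0.51 ± 0.13, adjusted p = 0.0279) and the isomerase Eci2 (0.43 ± 0.09, adjusted p = 0.0121) rose. Crot (-1.15 ± 0.18, adjusted p = 0.00123), the pyruvate dehydrogenase kinase Pdk4 (-1.34 ± 0.23, adjusted p = 0.00293) and Fgf21 (-1.25 ± 0.25, adjusted p = 0.00809) fell, and so did the other 2, Cyp4a14 and Cyp4a10, which hydroxylate fatty acids. Fgf21 RPKM was 5.64, 2.46 and 5.15 in HFD and 1.08, 1.15 and 1.37 in A10-FMT. Ppara itself was higher in A10-FMT than in HFD, the opposite direction to these 5 targets, while of all 46 targets 26 were higher and 20 lower. The Cyp4a14 and Cyp4a10 calls held in 15 and 8 of 24 alternative fits (adjusted p up to 0.144 and 0.171), and the Ppara call in 19. With library medians set equal, 5 targets rose and 5 fell (10.2% of all genes called, beside 6.6% in the main fit). Leaving out HFD replicate 3 or A10-FMT replicate 2 left 3 calls (3.18% and 2.58% of all genes). Leaving out A10-FMT replicate 1 (2.75%), or Con replicate 3 with AOS replicate 3 (3.76%), left 4.

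In HFD+AOS against HFD, 5 targets rose and 3 fell, with a median of 0.18 beside -0.01 over all genes. Cpt1a, which admits fatty acids to mitochondria (0.69 ± 0.13, adjusted p = 0.00388), Acaa1a (0.65 ± 0.13, adjusted p = 0.00754), the triglyceride lipase Pnpla2 (0.47 ± 0.10, adjusted p = 0.0128) and Eci2 (0.41 ± 0.09, adjusted p = 0.0146) rose, as did Acot3. Pdk4 (-1.13 ± 0.23, adjusted p = 0.00826) fell, as did Crot and the lipid droplet protein Plin5. The Plin5 call held in 11 of 24 alternative fits (adjusted p up to 0.158) and the Acot3 call in 5 (up to 0.203). Cpt1a RPKM was 97.99, 87.20 and 112.33 in HFD+AOS, above the 75.59, 51.96 and 56.94 in HFD. The count of targets called was 4 without HFD replicate 3 or HFD+AOS replicate 3 (3.05% and 5.88% of all genes). It was 5 without HFD replicate 2 (4.19%), HFD+AOS replicate 1 (3.06%) or HFD+AOS replicate 2 (5.12%). Without Con replicate 3 and AOS replicate 3 together it was also 5 (4.72%).

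Between the FMT groups, A10-FMT against Con-FMT, 3 targets fell and none rose, namely Fgf21 (-1.47 ± 0.25, adjusted p = 0.00551), Crot (-0.97 ± 0.18, adjusted p = 0.00979) and the electron carrier enzyme Etfdh (-0.52 ± 0.12, adjusted p = 0.0445). Only 1 was called without A10-FMT replicate 1 or A10-FMT replicate 2 (0.628% and 0.552% of all genes). Without A10-FMT replicate 3, 9 targets were called (5.37%). The Etfdh call held in 6 of 24 alternative fits (adjusted p up to 0.250) and was lost without any 1 Con-FMT liver. In Con-FMT against HFD no target passed limma's threshold, and 12 of 46 had an unadjusted p under 0.05, beside 697 of all 10507 genes. In AOS against Con, Angptl4 rose (1.08 ± 0.14, adjusted p = 0.0103), and the median over the list was 0.30 beside 0.07 over all genes (0.32 beside 0.08 without Con replicate 3 and AOS replicate 3). Angptl4 RPKM was 45.08, 46.09 and 45.34 in AOS and 17.31, 25.04 and 21.28 in Con. Without Con replicate 3 and AOS replicate 3 its difference was 1.09 and its adjusted p 0.448. No target was called there without Con replicate 1, Con replicate 3 or AOS replicate 3, where 0.0% of all genes were called. Without Con replicate 2, 5 targets and 1.26% of all genes were called.

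**Figure D4:**
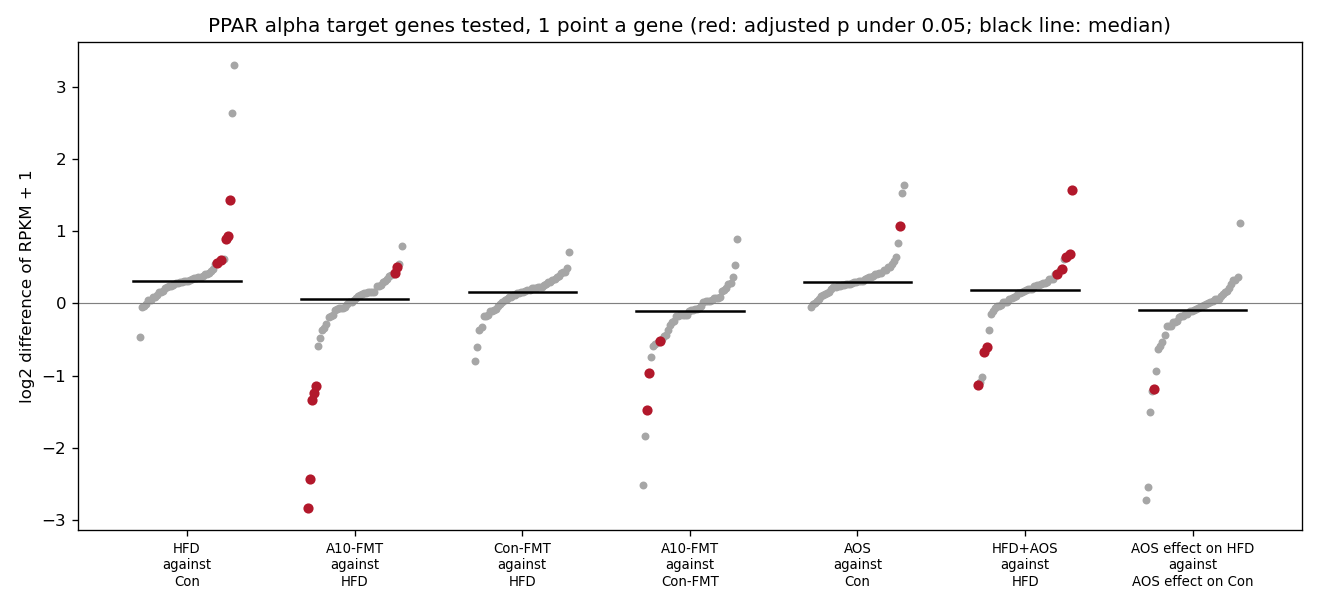
Log2 differences of RPKM + 1 for the 46 PPAR alpha targets tested (y axis, 1 point a gene) in 7 comparisons (x axis), with red points for genes called at an adjusted p under 0.05 over all genes and black lines for the medians. In HFD against Con 42 of 46 targets were above 0, and in A10-FMT against Con-FMT 29 of 46 were below 0.

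The core hexamer that PPAR and RXR read, AGGTCA, was looked for on both strands in the 250 bases before each start in RefSeq (GRCm38.p6). Of the members, 7 had windows, 12 in all, and Ppargc1b was not matched. The hexamer was present in 3 of these 12 windows (25%), in 9 of 43 windows of 36 target genes (20.9%) and in 14.02% of all windows. The direct repeat AGGTCANAGGTCA, which contains the hexamer, was in no window of members or targets and in 0.0335% of all. The stretches below show the hexamer for Pparg and Rxra and for targets named above, with it or its reverse complement TGACCT in capitals. The Rxra window printed from also holds TGACCT at bases -87 to -82 from its start, which is not shown. For Pparg and Slc27a2 the longer stretch around the site touched an annotated exon, so these are cut to 30 bases.
Pparg, chr6:115361104-115361133 (+): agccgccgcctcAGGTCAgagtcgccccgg
Pparg, chr6:115362319-115362348 (+): ttttatataagggacgcgaggAGGTCAaga
Rxra, chr2:27709217-27709276 (+): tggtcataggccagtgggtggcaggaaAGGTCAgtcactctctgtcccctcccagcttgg
Slc27a2, chr2:126552792-126552821 (+): gcaccacgccttTGACCTtttcaacgtggg
Cpt1a, chr19:3323180-3323239 (+): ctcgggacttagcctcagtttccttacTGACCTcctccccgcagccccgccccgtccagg
Plin5, chr17:56117686-56117745 (-): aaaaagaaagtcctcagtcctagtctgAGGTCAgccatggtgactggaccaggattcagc
The Pparg hexamers end 23 and 4 bases before their starts, and the Cpt1a site ends 89 bases before its own. The E-box CACGTG, a site of clock activators, was in 4 of 43 target windows (9.30%), that of Fgf21 among them, in 6.02% of all windows and in no member's window.
Fgf21, chr7:45615508-45615567 (-): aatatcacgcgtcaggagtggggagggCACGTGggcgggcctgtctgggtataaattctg
A match is a description of letters and not a measured binding site.

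Other partners and cofactors of the same machinery were mostly not called. Of 10 tested genes for other RXR partners, the xenobiotic receptor Nr1i3 (1.00 ± 0.26, adjusted p = 0.0319) and the bile acid receptor Nr1h4 (0.39 ± 0.10, adjusted p = 0.0377) rose in A10-FMT against HFD, and Nr1h4 also rose in A10-FMT against Con-FMT (0.49 ± 0.10, adjusted p = 0.0285) and in HFD+AOS against HFD (0.38 ± 0.10, adjusted p = 0.0378). Nr1h4 RPKM was 88.71, 96.25 and 72.39 in A10-FMT and 63.43, 73.37 and 58.57 in HFD, so these groups overlapped. The Nr1i3 call was lost in 7 of 24 alternatives (adjusted p up to 0.160), among them those without A10-FMT replicate 1, A10-FMT replicate 2, HFD replicate 2 or HFD replicate 3. The Nr1h4 calls were lost in 10, 7 and 10 of 24 alternatives (adjusted p up to 0.225, 0.236 and 0.156), in each case with Con replicate 3 and AOS replicate 3 left out together. Against HFD, both calls were also lost without Con replicate 3, AOS replicate 3, HFD replicate 1, HFD replicate 3 or HFD+AOS replicate 1, that of A10-FMT without its own replicate 1 or 2, and that of HFD+AOS without its own replicate 2 or 3. Against Con-FMT the call was lost without any 1 Con-FMT liver and without A10-FMT replicate 1 or 2. Of 6 other corepressors, Nrip1 fell in A10-FMT against HFD (-0.38 ± 0.10, adjusted p = 0.0321), a call lost in 7 of 24 alternatives (adjusted p up to 0.130), the same as for Nr1i3. None of 8 other coactivators passed limma's threshold in any comparison, and at most 3 had an unadjusted p under 0.05. That was so in A10-FMT against HFD and against Con-FMT, where 2571 and 1727 of all 10507 genes did.

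Genes under PGC-1 control and genes linked to PPAR gamma gave few calls. Of 10 PGC-1 genes, Esrra, a nuclear receptor for mitochondrial genes, rose by 0.49 ± 0.10 (adjusted p = 0.00768) with A10-FMT against HFD, and G6pc, the last enzyme of glucose output, fell in HFD+AOS against HFD (-1.58 ± 0.35, adjusted p = 0.0137). G6pc RPKM was 59.84, 59.55 and 157.60 in HFD+AOS and 148.89, 270.75 and 385.65 in HFD. Of 8 genes linked to PPAR gamma 3 were tested, and the fatty acid transporter Cd36 rose in HFD+AOS against HFD (0.68 ± 0.18, adjusted p = 0.0329). The G6pc call was lost without HFD replicate 3, HFD+AOS replicate 1 or HFD+AOS replicate 2 (adjusted p up to 0.0967 over 24 alternatives). The Cd36 call was lost in 7 of 24 (adjusted p up to 0.154), among them those without HFD replicate 2 or 3 and without HFD+AOS replicate 1 or 3.

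Markers of the cells a liver sample can hold were read beside the members. The hepatocyte markers summed to 36611 to 60656 RPKM in every liver. No hepatocyte, Kupffer, endothelial or stellate cell marker passed limma's threshold in any comparison. At most 2 of each list had an unadjusted p under 0.05, beside 697 to 2754 of all 10507 genes, depending on the comparison. Against HFD, the biliary marker Sox9 fell by 1.03 ± 0.15 (adjusted p = 0.000887) with A10-FMT and by 0.87 ± 0.15 (adjusted p = 0.00318) with HFD+AOS, whereas Krt19 and Spp1 were not called and the remaining 2 biliary markers were too low to test. The 5 adipocyte markers summed to at most 0.47 RPKM outside A10-FMT, and to 29.43, 2.15 and 0.08 in A10-FMT. Adipoq was 4.42 and Cfd 22.05 RPKM in A10-FMT replicate 1, where Pparg was 2.10, the lowest of its group. That liver also had the highest Ppargc1b, and the part of adipose RNA in this value was not tested. Without A10-FMT replicate 1, the A10-FMT differences from HFD were 0.59 for Ppara, -1.87 for Ppard and -0.36 for Ncor1.

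Finally, the genes that followed each member most closely over the 18 livers were ranked by Pearson r of log2(RPKM + 1), as a description. For Ppara these included Npc1 (0.95) and Iyd (0.95), and for Ppard they were Slc34a2 (0.95), Pnp (0.94) and Ddhd1 (0.94). For Rxra they were Bcas3 (0.91), 1600014C10Rik (0.91) and Adora1 (0.90), and Ddhd1 ran most opposite to it (-0.90). For Ppargc1b they were Trib3 (0.90), Bhlhe41 (0.90) and Bach1 (0.89), and for Ncor1 Nsd1 (0.90), Nipbl (0.88) and Prrc2c (0.87). Pparg and Rxrb had weaker leaders, Slc25a1 (0.82), H2-Q10 (0.80) and Aes (0.79) for Pparg and Tagap (0.74), C1rb (0.70) and Ankrd13b (0.69) for Rxrb. Among the members, Rxra ran with Ppara (0.83) and opposite to Ppard (-0.89), and Ppargc1b did so too (0.79 and -0.77).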

How the data were processed

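RNA-seq values of 18 mouse livers (6 groups of 3) were taken from 1 table of RPKM. Per the labels and the study's methods, the authors mapped reads and deposited RPKM, that is, reads scaled to transcript length and to the library's mapped reads. The methods name SOAPaligner, the submitters' processing notes name Bowtie 0.12.2 and mm10, and which made the table, the annotation and strand handling are not given in the sources used here. The study's own test, DEGseq, needs read numbers and was not used. Here log2(RPKM + 1) was fitted with limma 3.58.1 in R 4.3.3 (1 mean per group, empirical Bayes with trend) for genes at 1 RPKM or more in at least 3 livers, with Benjamini-Hochberg adjustment over all 10507 genes in each of 7 comparisons and calls at an adjusted p under 0.05. The fit was tested on simulated data. Depth is unknown, so no counting intervals are given. The members and the 14 gene lists were chosen with earlier results of these data known. Named were all members, up to 5 called genes by smallest p in each list and comparison (others called only by name, and genes in an example by their values), and the 3 genes most alike to each member, of which 1 is not reported here. Alternatives were another pseudocount, scaling or filter, only the groups compared, a replicate block, the study's cut-offs and leaving out livers. Promoter windows came from RefSeq (GRCm38.p6), and exons from GENCODE.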

Additional observations from a re-analysis of the deposited data

Results flagged for a closer look

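The difference of HFD+AOS from HFD was unlike that of AOS from Con, by limma's interaction term over all genes, for 1 PPAR alpha target and 8 clock genes. The AOS labels name no diet. Angptl4 differed by -1.18 ± 0.20 (log2, SE, adjusted p = 0.00906), with 1.08 in AOS against Con, and without Con replicate 3 and AOS replicate 3 the adjusted p was 0.0953. Of the clock genes, Arntl differed by -2.70, Npas2 by -1.81, Nfil3 by -1.68 and Clock by -1.16. Ciart differed by 3.26, Dbp by 5.45, Per3 by 2.48 and Tef by 2.12. Without Con replicate 3 and AOS replicate 3, the adjusted p was 0.0966 for Clock and 0.119 for Tef, and the other 6 clock genes stayed called (adjusted p 0.00193 to 0.0292). For Ppara, Ppard and the other members compared, this difference was not called.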

How the results depend on the processing

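Of the members' log2 differences under alternatives, 1163 moved by less than the spread between replicates, 13 by more, and none changed sign with a call. Many of them could not move, so this count does not measure robustness. A difference stays the same by design with no filter, only the groups compared, the replicate block, or a liver of another group left out. In A10-FMT against HFD, the call of Ppara held in 19 of 24 alternatives and that of Ncor1 in 13. With only the groups compared, 1 member was called in A10-FMT against HFD (0.742% of all genes). The targets called in that setting were 1 for HFD against Con (0.019% of all genes) and 1 for A10-FMT against HFD (0.742%). They were 0 in A10-FMT against Con-FMT (0.0381%), 2 in AOS against Con (0.39%) and 3 for the AOS effect between diets (1.3%). With library medians set equal, 4 members were called in HFD+AOS against HFD (12.2% of all genes) and 3 targets in HFD against Con (0.447%). With no filter, 5 targets were called in HFD+AOS against HFD (3.73% of all genes). Under the study's cut-offs (adjusted p of 0.001, log2 of 1), 1 member was called in A10-FMT against HFD (0.371% of all genes) and 1 in HFD+AOS against HFD (0.333%), and 0 targets in every comparison. The fits used RPKM, so depth could not be weighed.

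Leaving out 1 liver at a time gave 1 to 4 members called in A10-FMT against HFD (2.58% to 11.6% of all genes) and 2 to 3 in HFD+AOS against HFD (3.05% to 12.2%). It gave 0 to 1 in Con-FMT against HFD (0.00952% to 0.124%), A10-FMT against Con-FMT (0.485% to 5.37%) and the AOS effect between diets (0.276% to 1.77%). Targets called ran from 0 to 11 for HFD against Con (0.0% to 1.69% of all genes) and 3 to 10 for A10-FMT against HFD (2.58% to 11.6%). They ran from 1 to 9 in A10-FMT against Con-FMT (0.485% to 5.37%) and 0 to 5 in AOS against Con (0.0% to 1.26%). In HFD+AOS against HFD they were 4 to 9 (3.05% to 12.2%), and for the AOS effect between diets 1 to 3 (0.276% to 1.77%). Without Con replicate 3 and AOS replicate 3 the targets called were 0, 4, 2, 0, 5 and 0 in that order. The shares of all genes were then 0.0%, 3.76%, 0.78%, 0.0%, 4.72% and 0.143%. The causes were not tested.

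Deviations of same-numbered livers from their group means correlated at -0.177 to 0.225. With means of 3 livers and no differently numbered livers set beside them, these cannot show whether replicate numbers paired the livers. The main fit used no pairing. With the replicate block, 2 targets were called in HFD against Con (0.0476% of all genes).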
